A study of Mus musculus with 132 samples.

Results

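Messenger RNA of the metaphyseal shell was measured 24 h after a single bout of tibial loading, in 8 libraries. They were taken by their labels, as every library of this segment and time, and come from 4 of the 22 mice of the series, each of which gave 6 libraries, 3 segments of 2 limbs. Each of the 4 mice gives 1 loaded and 1 control shell here. The mice were female, of the inbred strain C57Bl/6J and 10 weeks old. The left tibia received cyclic compression with a peak of 9 N at 4 Hz for 1200 cycles, and the control was the other limb of the animal. The labels name no transgene, drug or other agent in either limb. The loaded limb is always the left one, so the bout and the side of the body cannot be told apart. The metaphyseal shell is the cortical end of the bone that the labels set apart from the proximal diaphysis and the mid-diaphysis, and each piece was frozen, pulverized and extracted whole, without a sort of its cells. How marrow and growth plate were treated is not given in the sources used here. Each mouse is a separate animal. Sequencing read the 3′ ends of transcripts, and the question was which genes differ between limbs a day after the bout.

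Bone that is loaded beyond its daily range forms new matrix on its surfaces over the following days, and osteocytes, the cells buried in the matrix, sense the strain and signal to osteoblasts, which build bone, and to osteoclasts, which resorb it. Osteoclasts are fused cells of the monocyte lineage that dissolve mineral with acid pumped by a vacuolar proton ATPase and digest collagen with cathepsin K and metalloproteinases. Metallothioneins are small cysteine-rich proteins that bind zinc and copper, and their genes are induced by free zinc, by glucocorticoids and by oxidative stress. The metaphyseal end of the tibia lies under the growth plate, so cartilage, blood vessels and active bone resorption are close to its cortex.

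The 8 libraries held 1943391 to 5409426 reads assigned to genes and 13995 to 15046 genes with at least 1 read, and 1 read was worth a normalized count of 0.263 to 0.759. The ribosomal RNA precursor Rn45s took 1.70% to 13.2% of a library. Markers of the labelled tissue were present in every library, with Col1a1 at 68495 to 130054 and the osteocyte gene Sost at 54.9 to 104. Markers of other cells were present too. The neutrophil gene S100a8 stood at 17398 to 29007, the red cell gene Alas2 at 733 to 985, and the cartilage gene Col2a1 at 277 to 1472. The muscle actin gene Acta1 was at 2946 in the loaded limb of mouse 3 and at 325 in its control limb, against 359 to 1281 in the other 6 libraries, and the mesothelial-type markers Wt1 and Krt19 were listed at 0 in all 8.

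Mouse 4 stood apart from the other mice across the transcriptome. Over 11341 genes, the differences between limbs of mice 1, 2 and 3 had rank correlations of 0.30, 0.40 and 0.35 with each other, while those of mouse 4 had -0.57, -0.51 and -0.46 with mice 1, 2 and 3. At the other times of this segment the correlation between a pair of mice ran from -0.54 to 0.36. Genes are not independent replicates, the points of a correlation share their libraries, and the values are descriptions. The oxidative phosphorylation gene Cox7c and the regulator gene Id3, picked after their values were seen, show the pattern. Cox7c was at 102, 41.7, 6.92 and 343 in the loaded limbs of mice 1 to 4 and at 181, 223, 140.3 and 30.0 in their control limbs, so the loaded limb was the lower in mice 1, 2 and 3 and the higher in mouse 4. Id3 followed the same order, at 624, 320.3, 35.2 and 1491 in loaded limbs and 971, 1005, 653 and 196 in control limbs. Klf4, a transcription factor gene, ran the other way, at 629, 554, 805 and 193 in loaded and 26.3, 325, 418 and 658 in control limbs, and its lowest value belonged to the control limb of mouse 1.

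These mice differed along an axis that a few mice of other times also followed. The leading principal component of the shell differences of the other 18 mice, over 4546 genes, held 30.7% of their variance. Its end on the side of mice 1, 2 and 3 held Snord89 and the muscle genes Mybpc2, Myom1, Mb, Tcap and Pygm, among others. The other end held the cartilage genes Col9a3, Col10a1, Acan and Col9a1, beside genes such as Txnip, Cox7c and Id3. The ends come from the other 18 mice, and not every gene followed its end at 24 h. Of the muscle genes named, Myom1 was higher under load in mice 1, 2 and 3 and lower in mouse 4. Mybpc2, Mb, Tcap and Pygm were lower in mouse 1, mouse 2 or both. Skeletal muscle genes had medians of -0.24, -1.04, 2.59 and -1.04 in mice 1 to 4. Col9a3 and Acan followed their end, but Col10a1 was higher in mouse 2 and Col9a1 slightly lower in mouse 4. Among the 18 mice the component's share of a mouse's squared difference was 84.1% in 1 mouse at 3 h and 53.8% in 1 after 7 bouts. The share was 48.4% and 35.5% in mice 4 and 5 after 5 bouts, but at most 14.7% in the 5 mice at 1 h. The component took up 23.3%, 42.9%, 44.9% and 55.2% of the squared difference of mice 1 to 4 at 24 h, with mouse 4 on the opposite side from the rest. In the proximal diaphysis mouse 4 had correlations of -0.05 to -0.12 with the others and in the mid-diaphysis of -0.03 to -0.25, against 0.05 to 0.54 among mice 1, 2 and 3 over both segments. The libraries were kept under their labels, and values without mouse 3 or mouse 4 are given for many of the results. What set mouse 4 apart was not tested. Whether its limbs were exchanged was not tested either, and an exchange would turn the sign of all its differences and alter each count over 4 mice.

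**Figure D1:**
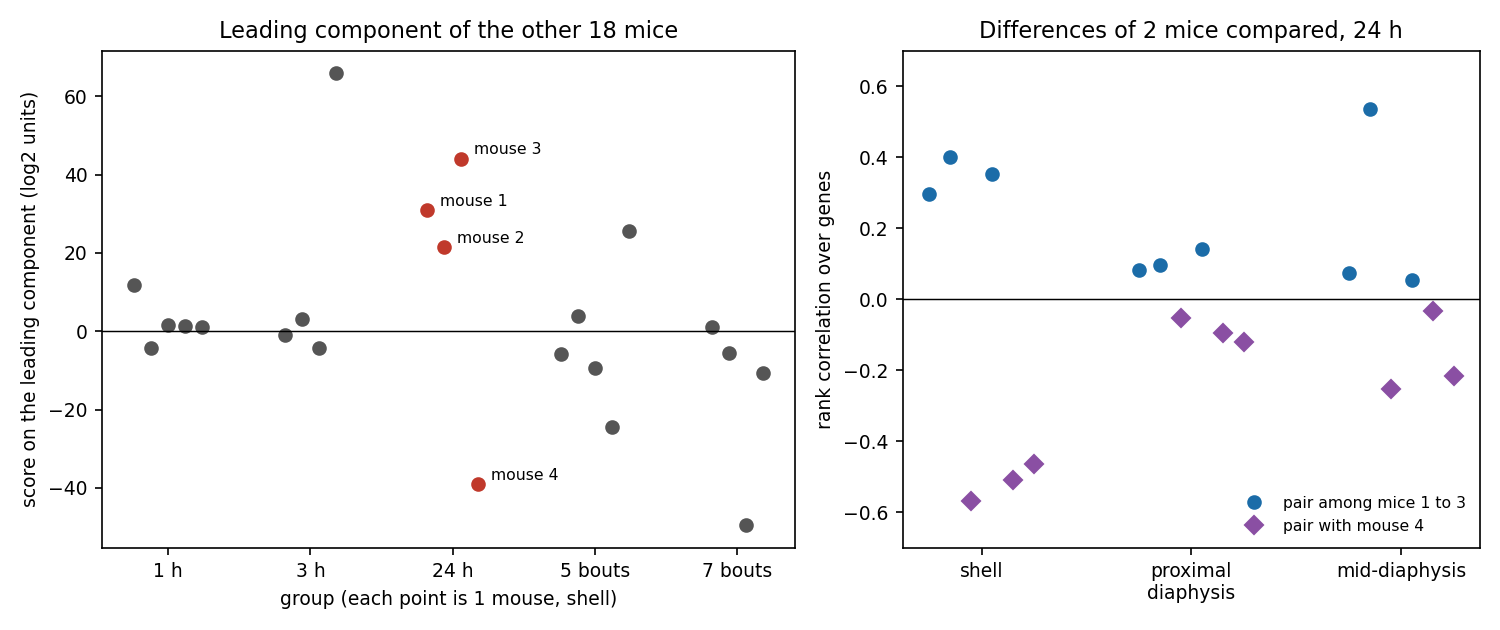
On the left, the score of each of the 22 mice on the leading component of the shell differences of the 18 mice of other times (vertical axis, log2 units; horizontal axis, group); red points are the 4 mice at 24 h, with mouse 4 below 0 and mice 1, 2 and 3 above. On the right, the rank correlation over genes between the limb differences of a pair of mice at 24 h in each segment, where every pair with mouse 4 lies below 0, at -0.46 to -0.57 in the shell.

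Across the transcriptome, limma called 0 of 11341 genes at an adjusted p under 0.05 between loaded and control shells at 24 h, which is 0% of those tested. At an unadjusted p under 0.05 there were 263 genes, or 2.32%, of which 62 (0.547%) were higher and 201 (1.77%) were lower in the loaded limb. edgeR on the recovered reads also called 0, with 192 at an unadjusted p under 0.05. The loaded limb was the higher in 4 of 4 mice for 337 genes (2.97%) and the lower in 4 of 4 for 304 (2.68%), and the 4 loaded values lay wholly above the 4 control values for 73 genes (0.644%) and wholly below for 52 (0.459%). Every gene named in what follows is given with that background. None of them passed the threshold, the smallest adjusted p was 0.44 and the next 1.00, so values and counts of mice carry the description. Levels are the deposited normalized counts, and differences are log2(value + 1) of the loaded minus the control limb, as means of 4 mice. Unless marked SD, ± is the SE from limma, with a spread pooled over the 22 mice of all times. It is not the spread of these 4 mice. With the 4 pairs alone, limma gave 57 genes an unadjusted p under 0.05, and the smallest p was that of Prss46.

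In the main fit, with the pooled spread, the gene with the smallest p was the metallothionein gene Mt1, lower in the loaded shell of each of the 4 mice. Mt1 stood at 291, 677, 259 and 135 in the loaded limbs of mice 1 to 4 and at 839.5, 752, 739.6 and 346 in their control limbs. The means were 341 ± 234 and 669 ± 219.9 (SD, n = 4 mice). Mouse 2 differed least between its limbs, and its loaded value lay above the control value of mouse 4, so the groups overlapped although each pair had the same order. The log2 difference was -1.13 ± 0.23, with a 95% interval of -1.60 to -0.67 and an adjusted p of 0.44 by limma and 0.575 by edgeR, neither of which passed. Without mouse 2 it was -1.46 and passed with an adjusted p of 0.0202, the 1 setting of 17 in which Mt1 was called, and over these settings its adjusted p ran from 0.0202 to 1. Without mouse 3 or mouse 4 the difference was -1.01 or -1.06, so its size did not rest on either.

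Mt2, the neighbouring metallothionein gene, had nearly the same pattern. It stood at 285, 593, 240.2 and 146 in loaded and at 843, 921, 669 and 246 in control limbs of mice 1 to 4, lower under load in 4 of 4, with a difference of -1.10 ± 0.28 (adjusted p = 1.00, limma, n = 4). The most marked contrast was in mouse 1, and mouse 4 was low in both limbs. Mt3, better known from brain, was at 9.92, 18.6, 5.66 and 1.88 in loaded and 24.2, 17.6, 18.96 and 3.38 in control limbs, lower in 3 of 4 mice (-0.83 ± 0.36). The 3 metallothionein genes measured had a median difference of -1.10, against 0.03 for all genes tested. Mt1 and Mt2 are similar in sequence, and how the authors assigned reads shared by such copies is not given in the sources used here, so their values may not be wholly separate.

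Because Mt1 and Mt2 had the same order in every mouse and lie side by side, their promoters are shown, from 250 bases before to 50 after the RefSeq start site (GRCm38.p6, plus strand). They occupy chr8:94178839-94179138 for Mt1 and chr8:94172368-94172667 for Mt2, and capitals mark matches to TGCACNC or TGCGCNC on either strand, the core of the element through which the zinc sensor MTF-1 acts on metallothionein genes.
Mt1: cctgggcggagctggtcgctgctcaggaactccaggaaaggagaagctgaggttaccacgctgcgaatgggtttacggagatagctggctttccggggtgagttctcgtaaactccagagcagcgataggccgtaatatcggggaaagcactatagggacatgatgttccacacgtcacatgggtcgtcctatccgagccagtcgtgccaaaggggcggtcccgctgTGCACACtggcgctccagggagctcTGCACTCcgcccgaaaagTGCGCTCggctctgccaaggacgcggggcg
Mt2: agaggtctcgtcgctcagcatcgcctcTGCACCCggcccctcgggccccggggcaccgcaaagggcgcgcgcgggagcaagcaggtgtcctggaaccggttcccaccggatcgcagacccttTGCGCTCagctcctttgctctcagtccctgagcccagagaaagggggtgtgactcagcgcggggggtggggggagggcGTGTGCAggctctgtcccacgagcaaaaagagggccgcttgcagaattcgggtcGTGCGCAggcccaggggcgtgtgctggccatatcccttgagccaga
The Mt1 window held 3 matches and the Mt2 window 4, with no overlap between matches. Counted from the start site, they began at -23, 2 and 20 for Mt1 and at -223, -128, -50 and 4 for Mt2. Those with positive numbers lie past the RefSeq start site on which the windows were set. The GENCODE start of Mt2, at 94172664, falls near the end of its window, at 94172667, so every Mt2 match lies before that start. Where transcription of either gene began in these libraries was not examined. Of 32851 promoters of this length in the mouse, 25.7% held at least 1 match, 1.97% at least 3 and 0.517% at least 4. A match describes the letters of the window and is neither a measured site nor a cause. In the GENCODE annotation of mm10, Mt1 is a protein-coding gene at chr8:94179082-94180327 and Mt2 at chr8:94172664-94173568, both on the plus strand.

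**Figure D2:**
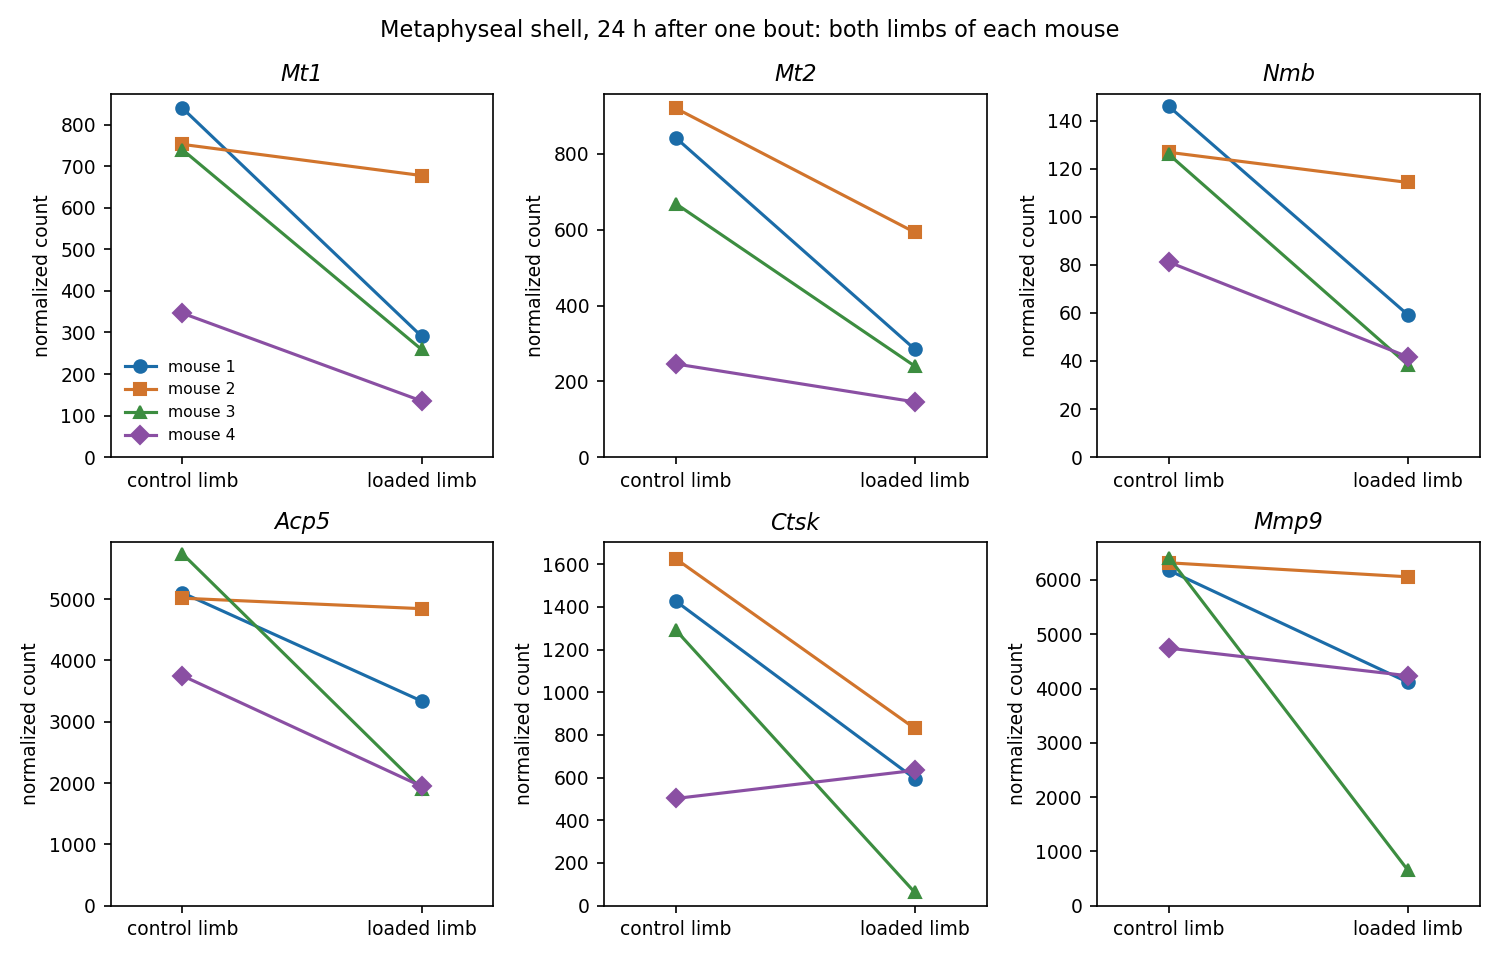
Normalized count (vertical axis, from 0) of 6 genes in the control and loaded shell of each mouse at 24 h, with a line joining the limbs of 1 mouse. Mt1, Mt2, Nmb, Acp5 and Mmp9 slope down in all 4 mice, with mouse 2 the flattest for Mt1, while Ctsk rises in mouse 4, from 502 to 634.

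Of the 40 lists examined, the osteoclast genes and the 3 metallothioneins were those in which every tested gene had a lower mean under load. The lists were written with earlier results of these data known, so this is a description and not independent support. The mesothelial-type list had no tested gene. Of 16 osteoclast genes, all of them tested, 16 had a lower mean in loaded shells and 0 passed the threshold. In this list 8 had an unadjusted p under 0.05, all lower, and 6 were lower in 4 of 4 mice. Over all genes, 46.4% had a lower and 53.6% a higher mean, 1.77% were lower at an unadjusted p under 0.05 and 2.68% were lower in 4 of 4 mice. The median difference of the list was -0.72, against 0.03 for all genes. By mouse the medians were -0.63, -0.23, -1.57 and -0.23 for mice 1 to 4, with 15, 12, 15 and 11 of the 16 genes lower. The summed level of the list was 9544, 13670, 3949 and 8602 in the loaded limbs and 14704, 15155, 15454 and 10703 in the control limbs. Mouse 3 carried much of the size, and without it the median was -0.39, while without mouse 4 it was -0.82. In whole bone, fewer osteoclasts and less RNA per osteoclast cannot be told apart.

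Among the enzymes, Acp5, the tartrate-resistant acid phosphatase that marks osteoclasts, stood at 3339, 4845, 1905 and 1947 in loaded and 5103, 5016, 5741 and 3751 in control limbs of mice 1 to 4. The means were 3009 ± 1393 and 4903 ± 833 (SD, n = 4), and the difference was -0.80 ± 0.28. Mice 1, 3 and 4 were clearly lower under load and mouse 2 nearly level. Ctsk, cathepsin K, which cleaves type I collagen, was at 596, 831, 62.3 and 634 and 1428, 1626, 1292 and 502, the widest difference of the list at -1.56 ± 0.50. It was lower in mice 1, 2 and 3 and higher in mouse 4, and without mouse 3 it was -0.63. Mmp9, a gelatinase that osteoclasts secrete in quantity, was at 4115, 6057, 649.6 and 4235 and 6176, 6315, 6410.4 and 4743. It was lower in 4 of 4 mice (-1.03 ± 0.39), but the gap was narrow in mice 2 and 4, and without mouse 3 it was -0.27. In the GENCODE annotation of mm10, these protein-coding genes lie at chr9:22126727-22135711 on the minus strand (Acp5), chr3:95499256-95509362 on the plus strand (Ctsk) and chr2:164940780-164955850 on the plus strand (Mmp9).

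The receptors, fusion proteins and transporters followed the enzymes. Tnfrsf11a, which encodes RANK, the receptor through which osteoclasts are formed, stood at 34.0, 42.2, 13.8 and 16.5 in loaded and 42.9, 53.5, 40.96 and 24.4 in control limbs (-0.67 ± 0.30, lower in 4 of 4, and -0.40 without mouse 3). Dcstamp, needed for the fusion of osteoclast precursors, was at 39.3, 61.9, 22.6 and 38.7 and 62.1, 89.5, 68.3 and 48.1 (-0.76 ± 0.26, lower in 4 of 4, and -0.49 without mouse 3). Slc9b2, a sodium/proton exchanger of osteoclasts, was at 47.1, 73.2, 31.4 and 27.4 and 88.7, 74.7, 73.6 and 50.0 (-0.74 ± 0.25, lower in 4 of 4). For each of these the pairs shared 1 order while the groups overlapped, and mouse 4 had the lowest control value. For Tnfrsf11a the control value of mouse 3 also lay below the loaded value of mouse 2. Calcr, the calcitonin receptor, was scarce, at 6.02, 7.88, 0.629 and 2.63 and 15.01, 6.34, 11.4 and 6.01, and was higher under load in mouse 2 alone. The members nearest to no difference, named like Calcr after their values were seen, were the transcription factor gene Nfatc1 at -0.25, the proton pump subunit gene Tcirg1 at -0.24, Ostm1, a partner of the chloride exchanger ClC-7, at -0.18, and the integrin gene Itgb3, which platelets also express, at -0.14.

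**Figure D3:**
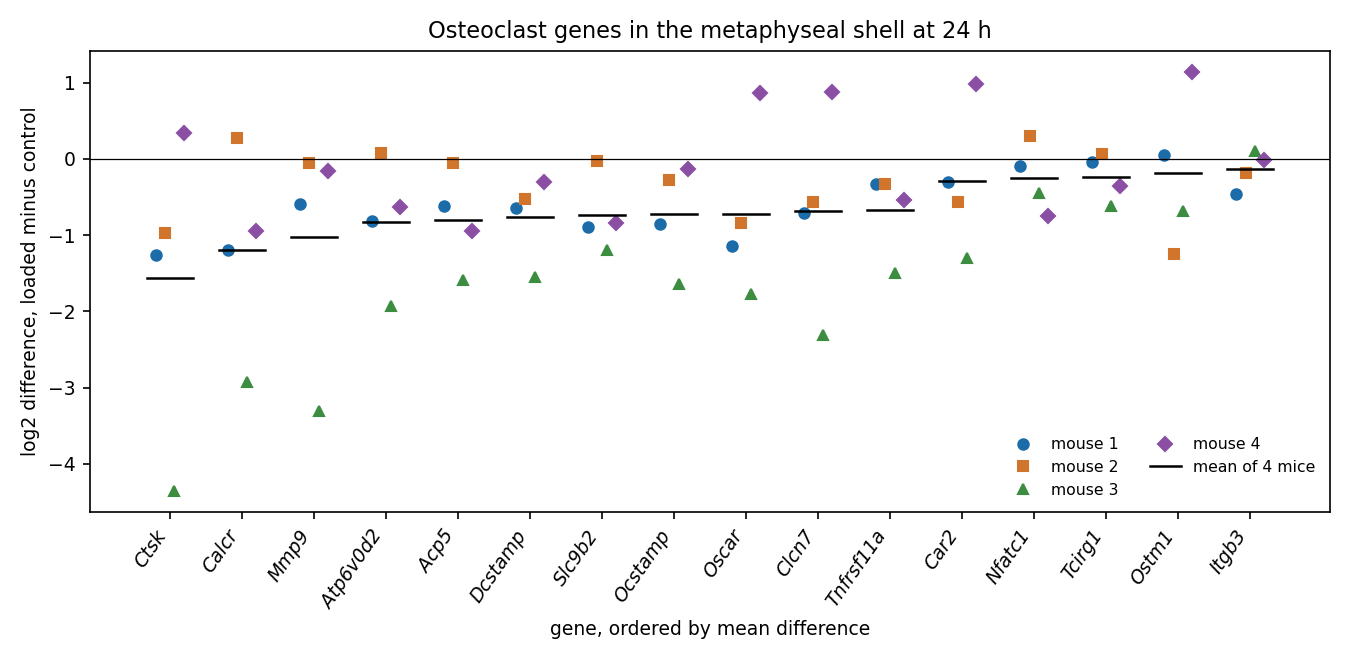
Log2 difference between the loaded and control shell (vertical axis) for the 16 osteoclast genes, ordered by their mean (horizontal axis), with 1 point per mouse and a bar at the mean of 4 mice. The means all lie below 0, the lowest point is that of mouse 3 for Ctsk, at -4.35, and mouse 4 lies above 0 for 5 of the genes.

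Several subunits of the proton pump that acidifies the resorption space had lower values as well. Atp6v0d2, the pump subunit that osteoclasts favour, stood at 123, 167, 49.1 and 56.0 in loaded and 218, 158, 189.6 and 87.1 in control limbs (-0.83 ± 0.27, lower in mice 1, 3 and 4, and -0.46 without mouse 3). Of the more widely expressed subunits, Atp6v1d was at 246, 293, 102 and 201 and 341, 313, 338 and 291 (-0.70 ± 0.23), and Atp6v1e1 at 250.5, 342, 86.8 and 269 and 335, 427, 377 and 279.8 (-0.73 ± 0.24). Both were lower in 4 of 4 mice, most of all in mouse 3, and without it they stood at -0.36 for Atp6v1d and -0.26 for Atp6v1e1. Over all vacuolar ATPase subunits, a group put together after the values were seen, 16 were tested, and 11 had a lower and 5 a higher mean. Of them 7 had an unadjusted p under 0.05, all lower, and 4 were lower in 4 of 4 mice. Over all genes, 46.4% had a lower mean, 1.77% were lower at an unadjusted p under 0.05 and 2.68% were lower in 4 of 4. The median of the subunits was -0.44, or -0.27 without mouse 3. By mouse it was -0.45, -0.03, -1.01 and -0.41 for mice 1 to 4, so mouse 2 was about level.

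Among signals that control osteoclasts, the genes of RANKL and its decoy were scarce. Tnfrsf11b, which encodes osteoprotegerin, the soluble decoy that keeps RANKL from its receptor, stood at 4.96, 3.94, 8.18 and 9.39 in loaded and 1.84, 4.23, 3.79 and 1.502 in control limbs. It was higher under load in mice 1, 3 and 4 and about level in mouse 2, with a difference of 0.99 ± 0.43 at low counts, or 0.64 without mouse 4. The RANKL gene Tnfsf11 was at most 2.52 in any of the 8 libraries and was not tested. Csf1, the growth factor of the monocyte and osteoclast lineage, had a difference of -0.06 ± 0.31 and its receptor gene Csf1r of -0.54 ± 0.32. Of the 6 genes tested in the list for RANKL, osteoprotegerin and CSF1 signalling, 1 was higher and 1 lower at an unadjusted p under 0.05, and the median was -0.22. In the shell, genes of the wider monocyte and macrophage lineage had a median of -0.09 over 16 genes and 1 of them lower at an unadjusted p under 0.05. Of the 16, 12 had a lower mean, against 46.4% of all genes.

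Matrix-degrading and matrix-binding genes linked to resorption surfaces were lower too. Mmp13, the collagenase of osteoblasts, osteocytes and hypertrophic cartilage, stood at 821, 1079, 191 and 716 in loaded and 1353, 1853, 1426 and 765 in control limbs of mice 1 to 4. Every mouse was lower under load, mouse 4 by little, and the difference was -1.12 ± 0.42, or -0.53 without mouse 3. Spp1, osteopontin, a mineral-binding protein to which osteoclasts attach, was at 419, 523, 191 and 372 and 676, 816, 723 and 412, lower in 4 of 4 mice (-0.85 ± 0.33, and -0.49 without mouse 3). The list of metalloproteinases and inhibitors, with Mmp9 and Mmp13 among its 14 tested genes, had a median of -0.07, and these 2 were its members with an unadjusted p under 0.05. Timp1, lower in 4 of 4 mice as well, had a difference of -0.13 ± 0.24 and Timp3 of -0.13 ± 0.20.

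Genes lower in every mouse also included Nmb, Bdh1, Sema7a and Eln, which differ in function. What all 304 genes lower in 4 of 4 mice share by function was not examined. Nmb, the neuropeptide neuromedin B, stood at 59.2, 114.3, 38.4 and 41.7 in loaded and 146, 127, 126 and 81.1 in control limbs, with a difference of -1.02 ± 0.27. Mouse 2 again differed least, and mice 1, 3 and 4 had well separated limbs. Bdh1, a mitochondrial enzyme of ketone metabolism, was at 29.1, 38.6, 6.29 and 18.04 and 47.4, 60.6, 46.3 and 26.3 (-1.14 ± 0.32, and -0.62 without mouse 3). Sema7a, a membrane-anchored semaphorin, was at 51.4, 66.7, 5.03 and 52.2 and 75.6, 93.7, 80.4 and 52.96, and its difference of -1.20 ± 0.37 came mostly from mouse 3, since without it the value was -0.35. Eln, elastin, was at 14.9, 9.57, 11.9 and 18.4 and 23.2, 35.9, 21.2 and 20.7, and every loaded value lay below every control value (-0.84 ± 0.31, and -0.51 without mouse 2).

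Genes higher in every loaded shell were led by Vcan, which encodes versican, a large proteoglycan of provisional matrix, at chr13:89655312-89742509 on the minus strand (mm10, GENCODE). Vcan stood at 130.03, 96.5, 113.8 and 73.6 in the loaded limbs of mice 1 to 4 and at 47.1, 61.3, 61.4 and 68.0 in their control limbs. The means were 104 ± 24.2 and 59.5 ± 8.79 (SD, n = 4), every loaded value lay above every control value, and the difference was 0.77 ± 0.26. Mouse 4 had the narrowest gap. The value was 0.74 without mouse 3 and 0.99 without mouse 4.

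Leprel4, a protein of the collagen lysyl hydroxylation complex in the endoplasmic reticulum, was at 585, 406, 376 and 379 in loaded and 358, 286, 309 and 287 in control limbs, again without overlap (0.47 ± 0.19). Cybrd1, a ferric reductase, was at 30.5, 19.4, 20.8 and 29.7 and 19.5, 16.9, 9.86 and 6.76 (0.95 ± 0.37, and 0.60 without mouse 4). The remaining genes of the rule were nuclear factors and enzymes, Arid3b, Mettl2, Aida, Pcf11, Ints2, Cers4 and Swt1, with differences of 0.56 to 0.82. For Aida, Ints2 and Swt1 the control limb of mouse 1 lay below the other 3 control limbs, at 18.2, 15.5 and 20.8, and gave the widest gap, and without mouse 1 the differences were 0.43 for Aida, 0.46 for Ints2 and 0.20 for Swt1. That library was low in Klf4 as well.

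Genes of the osteocyte had no common direction. Sost, which encodes the Wnt inhibitor sclerostin and is lowered by loading in many studies of the tibial shaft, stood at 87.2, 104, 89.9 and 54.9 in loaded and 65.04, 64.8, 72.8 and 71.7 in control shells. It was higher under load in mice 1, 2 and 3 and lower in mouse 4 (0.25 ± 0.29, 95% interval -0.35 to 0.85). Dmp1, a matrix phosphoprotein of osteocytes, differed by -0.35 ± 0.37, Mepe by 0.35 ± 0.22 and the phosphate regulator Phex by 0.10 ± 0.23. The intervals of all 4 included 0. Of 16 osteocyte genes tested, 8 had a higher mean, 8 a lower one, 0 had the same sign in every mouse, and the median was 0.05.

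Genes of bone formation had no common direction. Col1a1 stood at 113796, 93282, 130054 and 80372 in loaded and 75774, 68495, 74270.2 and 84647 in control limbs, higher in mice 1, 2 and 3 and slightly lower in mouse 4 (0.44 ± 0.35, 95% interval -0.28 to 1.16). Col1a2 was at 52672, 41221, 60427 and 54415 and 18715, 71872, 51578 and 30699.8, higher in mice 1, 3 and 4 (0.44 ± 0.43, and 0.08 without mouse 1). The osteocalcin gene Bglap differed by 0.23 ± 0.35, the alkaline phosphatase gene Alpl by 0.08 ± 0.37 and the bone sialoprotein gene Ibsp by -0.08 ± 0.23. Over 25 osteoblast and mineralisation genes the median was 0.14, with 2 lower at an unadjusted p under 0.05 and 0 higher. Genes of the endoplasmic reticulum and secretory pathway had a median of -0.02 over 32 genes, and those of collagen processing and crosslinking 0.09 over 20.

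Growth factor and Wnt genes varied between mice. Bmp2, an osteogenic growth factor, was at 82.6, 81.1, 111.9 and 51.5 in loaded and 21.9, 76.8, 66.8 and 59.3 in control limbs, higher in mice 1, 2 and 3 (0.62 ± 0.30), with the low control limb of mouse 1 giving the widest gap. Without mouse 1, Bmp2 differed by 0.20. Inhba, the subunit of activin A, was at 29.4, 31.8, 32.7 and 17.3 and 1.84, 16.2, 23.5 and 30.0, with the same low control (1.01 ± 0.44, and 0.21 without mouse 1). Wnt7b, a ligand that promotes bone formation, was scarce, at 7.09, 8.44, 8.80 and 0.376 and 7.90, 20.4, 14.4 and 9.01, and was lower in 4 of 4 mice (-1.21 ± 0.49, and -0.66 without mouse 4). Wnt1, Axin2, Ptgs2 and Fgf23 were at or near 0 and were not tested. The Wnt target and ligand list had a median of 0.05 over 12 genes, the Wnt antagonists -0.01 over 9, and BMP and TGF-beta signalling 0.18 over 24, of which 2 were higher at an unadjusted p under 0.05.

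Immediate early genes, which answer strain within the hour, showed no lead in the loaded limb a day later. Egr1 stood at 30.8, 39.1, 24.5 and 36.1 in loaded and 34.2, 71.9, 39.4 and 40.9 in control limbs, lower in 4 of 4 mice (-0.46 ± 0.23). Fos was at 8.15, 16.9, 7.55 and 0.752 and 6.32, 11.3, 15.9 and 10.1, with 2 mice in each direction (-0.70 ± 0.52, and -0.04 without mouse 4), and Fosb was at most 1.26 and was not tested. The list of 17 genes had a median of -0.03, against 0.22 in the shell at 1 h. YAP and TAZ target genes had a median of -0.10 over 13, with Ankrd1 higher in 4 of 4 mice at low counts, at 1.42, 16.04, 6.29 and 1.88 and 0, 2.11, 0 and 0.376.

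**Figure D4:**
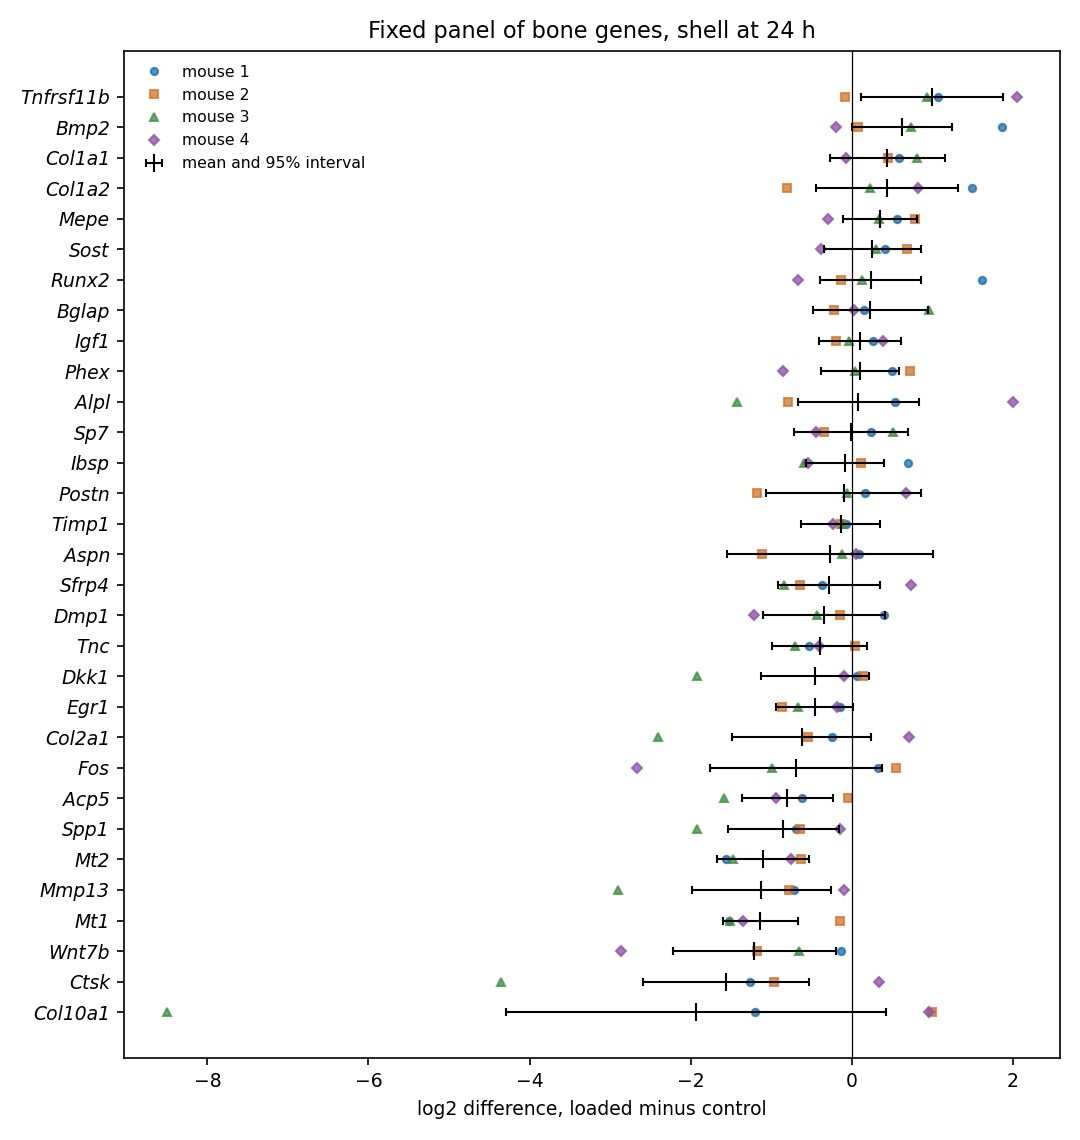
Log2 difference between the loaded and control shell (horizontal axis) for the tested genes of a fixed panel of bone genes (vertical axis), with 1 symbol per mouse and the mean with its 95% interval from limma. Before adjustment over all genes, the intervals of Tnfrsf11b and, by a hair, Bmp2 lie above 0, and those of Mt1, Mt2, Acp5, Ctsk, Mmp13, Spp1 and Wnt7b below it.

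The lists of cartilage and of muscle genes turned on mouse 3. Cartilage and growth plate genes had a median of -0.89 over 18 genes. Of these, 0 had an unadjusted p under 0.05 and 4 were lower in 4 of 4 mice, against 2.32% and 2.68% of all genes. By mouse the medians were -0.46, -0.32, -3.48 and -0.29, and without mouse 3 the list stood at -0.20. Col10a1, the collagen of hypertrophic cartilage, shows it, at 143, 100.8, 0.629 and 19.9 in loaded and 330.2, 50.0, 589 and 9.77 in control limbs, a difference of -1.94 that was 0.25 without mouse 3. Skeletal muscle genes had medians of -0.24, -1.04, 2.59 and -1.04, so mouse 3 differed in the other direction there, with a summed level of 17022 in its loaded limb against 2565 in its control limb. The summed cartilage level did not follow the median. It was 9581, 7991, 10307 and 4279 in loaded and 3716, 7235, 8632 and 9069 in control limbs, most of it in the libraries of mouse 3 from Col11a1, which osteoblasts also express. The loaded limb of mouse 3 held the highest summed muscle level and the lowest summed osteoclast level of the 8 libraries, and the part of tissue make-up in the osteoclast values was not tested.

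Blood, vessel and marrow lists had medians nearer to 0 than the osteoclast list, and some were mostly lower under load. The medians were -0.01 for 8 erythroid genes, -0.01 for 17 neutrophil and granulocyte genes, -0.25 for 10 B cell genes, 0.06 for 13 megakaryocyte genes, 0.11 for 17 endothelial genes and -0.17 for 13 marrow stromal and adipocyte genes. In each of these at most 2 genes had an unadjusted p under 0.05, against 2.32% of all genes. A lower mean was found for 8 of 10 B cell and 10 of 13 marrow stromal and adipocyte genes, against 46.4% of all genes. The share was 4 of 8 for erythroid, 9 of 17 for neutrophil, 4 of 13 for megakaryocyte and 5 of 17 for endothelial genes. Periosteal, tendon and matricellular genes had a median of -0.21 over 27, with 2 lower at an unadjusted p under 0.05, Eln and Wisp2. Wisp2, a matricellular protein gene, was at 5.31, 9.29, 5.03 and 4.88 and 10.3, 12.7, 13.7 and 10.9, with no overlap between limbs at low counts. Cell cycle genes had a median of -0.08 over 35, cytosolic ribosomal protein genes 0.04 over 80, and circadian clock genes 0.12 over 14.

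Metallothionein and osteoclast genes were also lower under load in the diaphysis of the same mice, and so were markers of several blood and marrow cells. In the proximal diaphysis Mt1 stood at 147, 116.3, 210.4 and 93.6 in loaded and 326, 403, 395 and 229 in control limbs, and in the mid-diaphysis at 108.4, 136, 86.7 and 179 and 231, 219, 1314 and 192. The loaded limb was the lower in 12 of 12 pairs of libraries over the 3 segments, with means of -1.28 for the proximal and -1.44 for the mid-diaphysis. As background, the loaded limb was the lower in 4 of 4 mice for 6.51% of genes in the proximal and 6.48% in the mid-diaphysis, and the higher for 6.32% and 6.8%. Mt2 was the lower in 12 of 12 pairs as well, by -0.94 and -1.80. Acp5 stood at 1069, 1173, 967 and 849.8 in loaded and 2023, 2800.1, 1957 and 1427 in control limbs of the proximal diaphysis and at 358, 751, 488 and 638 and 1077, 1250.1, 1433 and 780.0 in the mid-diaphysis, with no overlap between limbs in either. Its means were -0.98 and -1.04 there, against -0.80 in the shell, and Mmp13 was lower by means of -1.90 and -2.03.

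Tests of the difference between segments gave no call. limma called 0 of 12220 genes (0%) for the shell against the proximal diaphysis. An unadjusted p under 0.05 was found for 71 (0.581%), 0.352% higher and 0.229% lower, and for 88 in edgeR, which called 0. Against the mid-diaphysis it called 0 of 12734 (0%). Of those, 216 (1.7%) had an unadjusted p under 0.05, 1.01% with a higher and 0.691% with a lower response in the shell, and 170 did in edgeR, which called 0. The response of Mt1 in the shell minus that in the proximal diaphysis was 0.14 ± 0.42, and minus that in the mid-diaphysis 0.31 ± 0.57. For Acp5 these were 0.18 ± 0.43 and 0.24 ± 0.95. Such standard errors leave room for a wide difference in either direction.

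Over the 3 segments, 11 genes were lower in 12 of 12 pairs (0.097% of the genes tested in the shell) and 24 were higher (0.212%), a selection made after the values were seen and in segments that share their mice. The 11 were Mt1, Mt2, Acp5, Mmp9, Mmp13, Atp6v1e1, the kinase gene Syk and the adaptor gene Pstpip1 of blood-derived cells, and the matrix genes Eln, Edil3 and Thbs2. Among the 24 were Cybrd1, Ddr2, a collagen receptor, Bcan, a proteoglycan gene, and Rcn1 and Fkbp11, which encode proteins of the endoplasmic reticulum. Rcn1, picked after its values were seen, stood at 445, 369, 441 and 377 in loaded and 324, 309, 269 and 356 in control shells, without overlap. Vcan was the higher in 4 of 4 pairs of the proximal diaphysis, by a mean of 1.29, and in 3 of 4 of the mid-diaphysis, by 1.09.

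The osteoclast list itself had medians of -0.68, -1.09, -1.42 and -0.36 in the proximal diaphysis and -0.88, -0.73, -0.26 and -0.87 in the mid-diaphysis of mice 1 to 4. Between 9 and 15 of its 16 genes were lower in each of those 8 pairs. Skeletal muscle genes differed widely in the same libraries, with medians of -3.68, -2.73, 3.87 and -0.04 in the proximal and -4.42, -3.41, -6.05 and 3.41 in the mid-diaphysis, and their part in these values was not tested. Other lists of blood and marrow cells were lower there too. Monocyte and macrophage genes had medians of -0.15, -0.26, -0.92 and -0.94 in the proximal and -0.55, 0.04, -0.97 and -0.42 in the mid-diaphysis of mice 1 to 4. Over the mean of 4 mice the medians in the proximal and mid-diaphysis were -0.54 and -0.47 for that list, -0.75 and -0.60 for B cell genes, -0.66 and -0.94 for T and NK cell genes, -0.61 and -0.43 for marrow stromal and adipocyte genes, -0.49 and -0.40 for interferon response genes and -0.63 and -0.50 for chemokines and cytokines, against -0.81 and -0.95 for osteoclast genes and -0.03 and -0.03 for all genes tested. The part of these cells in the osteoclast values was not tested. The segments had unlike medians in other lists. Genes of the endoplasmic reticulum and secretory pathway had a median of 0.65 in the mid-diaphysis against -0.02 in the shell, and osteoblast genes 0.45 against 0.14. Sost stood at 147, 282, 237 and 229 in loaded and 429, 489, 557 and 551 in control mid-diaphyses, with no overlap and a mean of -1.21, against 0.25 in the shell. The difference between these responses was 1.46 ± 1.08 and did not pass (adjusted p = 1.00, limma, n = 4). The genes with the smallest p against the mid-diaphysis were Abhd16a, a lipid enzyme gene, at -2.77 ± 0.78, and Klf7, Sh3bp5, Ing1 and Foxp1, at 1.53 to 2.63, each with an adjusted p of 1.00.

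**Figure D5:**
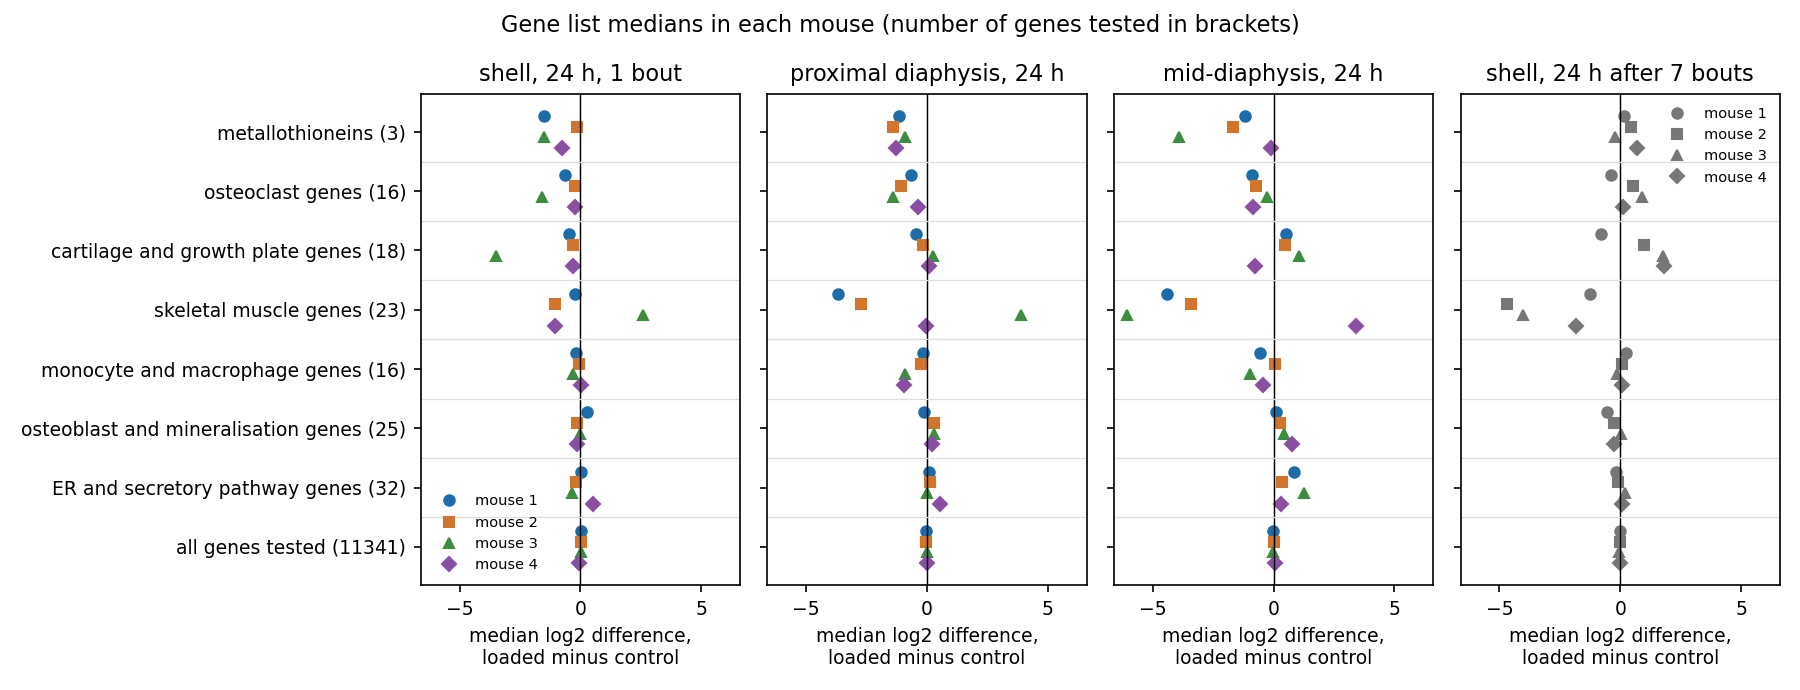
Median log2 difference of 7 gene lists and of all genes tested (horizontal axis) in each mouse, with 1 panel each for the shell, the proximal diaphysis and the mid-diaphysis at 24 h and for the shell 24 h after the last of 7 bouts, whose mice are others and are drawn in grey. The osteoclast medians lie below 0 in all 12 pairs at 24 h and run from -0.38 to 0.89 after 7 bouts, while muscle and cartilage medians spread widely between mice.

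At the other times of the same segment Mt1 lay near or above 0. The 3 metallothionein genes together were less level at 1 h, with medians of -0.43, -0.52, -0.62, -0.20 and 0.16 by mouse. Over the mean of the mice their median was -0.23 at 1 h, 0.10 at 3 h, 0.38 after 5 bouts and 0.31 after 7 bouts. The mean difference of Mt1 was -0.12 ± 0.30 at 1 h (SD, n = 5 mice), 0.04 ± 0.23 at 3 h (n = 4), 0.34 ± 0.58 after 5 daily bouts (n = 5, taken on the eighth day) and 0.31 ± 0.13 after 7 daily bouts (n = 4), where it was higher in 4 of 4 mice. The response at 24 h was lower than that at 3 h by -1.17 ± 0.32 (adjusted p = 1.00) and lower than that after 7 bouts by -1.45 ± 0.32 (adjusted p = 0.647, both by limma), so neither passed. Against 3 h, limma called 0 of 11341 genes (0%). An unadjusted p under 0.05 was found for 1.01%, 57 higher and 57 lower (0.503% each), and for 152 genes in edgeR, which called 0. Against 7 bouts, where both groups were taken 24 h after their last bout, it called 0 of 11341 (0%). An unadjusted p under 0.05 was found for 753 (6.64%), 4.12% higher and 2.52% lower at 24 h, and for 671 in edgeR, which called 0.

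Osteoclast genes had a median of -0.26 at 1 h, -0.31 at 3 h, 0.00 after 5 bouts and 0.26 after 7 bouts, against -0.72 at 24 h. By mouse the medians were -0.31, -0.17, -0.28, -0.33 and -0.07 at 1 h, so every mouse lay below 0 there as at 24 h. They were -0.29, 0.15, 0.04 and -0.65 at 3 h and 0.18, 0.24, -0.24, -0.03 and -0.40 after 5 bouts. After 7 bouts they were -0.38, 0.53, 0.89 and 0.13. Ctsk had a mean difference of 0.65 ± 0.91 there (SD, n = 4), and its response at 24 h was lower by -2.21 ± 0.71, while that of Mmp13 was lower by -1.98 ± 0.59 and that of Mmp9 by -1.60 ± 0.55 (each adjusted p = 0.736, limma). Muscle genes had a median of -2.89 after 7 bouts, and Mb, myoglobin, the oxygen store of muscle, a mean difference of -4.04 there. Fbn2, a microfibril gene, at 1.23 ± 0.28, the lysyl oxidase gene Loxl2, at 1.77 ± 0.43, and the Wnt inhibitor gene Nkd2, at 1.51 ± 0.37, had higher responses at 24 h than after 7 bouts and did not pass. The 24 h libraries carry numbers from 26 to 86 in the table header and the 7 bout libraries numbers from 622 to 910, which the labels do not explain, so the time and the library set cannot be told apart in this comparison.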

How the data were processed

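Normalized counts (signal) were deposited by the authors as 1 table of 23412 genes and 132 libraries, made with STAR, FastQC, DESeq2 and mm10 per the submitters' processing notes, without versions or settings. Each value was tested for whole reads: 100% came out whole in every library within 0.02 reads, so counts could be recovered. edgeR 4.0.16 on those recovered counts called 0 genes. The table names no row without a gene. 27 symbols read as dates, 4 duplicated ones were left out, and 0 columns went unused. Libraries were taken by header number, and mice by replicate number, which marks 1 animal with both limbs.

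In R 4.3.3, limma 3.58.1 tested log2(value + 1) with the mouse as a block over the 44 shell libraries, keeping genes at 10 or more in at least 4 (11341), with Benjamini-Hochberg adjustment over all of them at 0.05. A fold on this scale understates low genes. Standard errors and intervals rest on a spread pooled over the 22 mice of all times, not on the 4 mice of 24 h alone. Named genes were, up to 10 per direction, those with 1 sign in 4 of 4 mice and a mean of at least 20, by smallest p, with a fixed bone panel, up to 6 genes of each list by smallest p, and 5 for each comparison of responses. The members and lists were chosen with earlier results of these data known. Scripts were tested on simulated data. Alternatives covered the pseudocount, filter, scaling, block, weights, samples, covariates, edgeR and each mouse left out.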

Additional observations from a re-analysis of the deposited data

Results flagged for a closer look

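In 7 of the 104 sets of 4 mice examined, 1 mouse lay far from the others, and chance gives about 1 in 20 such sets. For Mt1 it was mouse 2, at a log2 difference of -0.15 where the other mice were lower. Mouse 3 stood apart for Bdh1 at -2.70, Dkk1 at -1.92, Sema7a at -3.75 and the median of the cartilage and growth plate genes at -3.48. Mouse 1 stood apart for Ints2 at 1.51, through its low control limb. For glycolysis and hypoxia genes mouse 2 had a list median of 0.0735.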

How the results depend on the processing

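For loaded against control shells, limma called 0 genes with the replicate block of 4 mice and 0 with no replicate block, where 147 had an unadjusted p under 0.05. Leaving out each mouse gave 0 to 1 calls, the 1 being Mt1 without mouse 2 (adjusted p = 0.0202, range over its alternatives 0.0202 to 1). Array weights gave 1 call, Ear1, 5 against the mid-diaphysis and 1 against 7 bouts, Npy, and the cause was not tested. With these weights 1900 genes (16.8%) had an unadjusted p under 0.05 for loaded against control shells. The lists held 0 to 1 called genes when a mouse was left out. Other pseudocounts, a filter at a mean of 50, upper-quartile scaling and edgeR gave 0 calls in the 5 comparisons. No filter, the 4 pairs alone, all libraries together and muscle and erythroid covariates were run for loaded against control shells alone and gave 0. A component covariate and leaving out both mouse 3 and mouse 4 were chosen after seeing the data, run for the same comparison, and gave 0. Of the named genes' alternatives, 4184 kept their sign and stayed uncalled, 175 turned their sign without a call, and 1 passed. Scarce genes rest on few reads, and no limit of detection was worked out for them.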

Other observations

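Other lists were measured in the shell, where the median of all genes was 0.03. The median was 0.04 for 11 genes of the IGF axis, 0.09 for 14 mechanosensitive channel and hemichannel genes, -0.03 for 8 nerve guidance and growth genes and 0.08 for 7 prostaglandin and nitric oxide genes, with 0 genes of these at an unadjusted p under 0.05 and 0 called by limma. Interferon response genes had a median of -0.03 over 21, and chemokines and cytokines -0.21 over 12, with 1 lower in each at an unadjusted p under 0.05. Fibrillar and associated collagens had a median of 0.10 over 20. The medians were 0.12 for 12 small leucine-rich proteoglycan genes, 0.14 for 8 pericyte and smooth muscle genes, 0.14 for 4 Schwann and nerve genes and 0.10 for 6 T and NK cell genes, with 0 at an unadjusted p under 0.05.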
